A study of Homo sapiens with 25 samples.

Results

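The kinesins are the family of motor proteins that walk along microtubules, and their transcripts were followed here by RNA sequencing in 25 libraries of the Jurkat line, which was derived from a human T-cell leukaemia. Members were the genes whose symbol was KIF with a number and an optional letter A to C, or KIFC1 to KIFC3, and whose normalized count reached 10 in at least 2 of the 25 libraries. Of 40 genes with such a symbol 38 passed, among 22994 genes that passed the same filter and 36755 in the table. By their best known role 14 were counted as mitotic, 16 as transport and 8 as other kinesins. KIF17 stayed outside, with 11.8 and 9.91 normalized counts in its highest libraries, as did KIF19, whose second highest was 3.68. Just inside lay KIF25, with 14.3 in its second highest library, and KIF4B, with 15.8. KIF4B reached 10 in 2 libraries, KIF1A in 6, KIF25 in 8, KIF5C in 22 and KIF13A in 24, and each of the other members did so in all 25. KIF2B and KIF12 were not analysed here.

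A kinesin motor domain hydrolyses ATP to step along a microtubule or, in the kinesin-13 group, to take the microtubule apart at its end. Mitotic kinesins build the spindle, align the chromosomes and organise the midzone that later guides the division of the cell, and many of their genes are transcribed mainly in G2 and mitosis under the MuvB complex with MYBL2 and FOXM1. Transport kinesins carry organelles, vesicles and mRNAs outward in interphase cells, and in T cells motors on microtubules also take part in building the contact with an antigen-presenting cell.

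Cells were kept in medium with 12.5%, 25%, 50% or 100% histidine for 6 days (2 libraries at 12.5% and 3 at each other level) or with 0%, 12.5%, 25%, 50% or 100% for 3 days (2 libraries at 100%, replicates 1 and 3, and 3 at each other level). Histidine is an essential amino acid, and the labels give no other treatment and no alteration of the line. Nothing in the labels says that replicates were separate cultures, so the spread behind each p-value is that between libraries and may be technical only. All restricted levels of a day were set against the same 100% libraries of that day. These were bulk samples, so fewer cells in mitosis and less RNA of a gene in each cell cannot be told apart.

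The 10 T-lineage markers were all present, with a summed normalized count of 47200 to 78450 per library, highest at 0% histidine on day 3 (75180 to 78450, against 47210 to 52490 at 100%), and 56380 to 56900 at 12.5% on day 6, against 47200 to 48480 at 100%. The markers did not move together at 12.5% on day 6. CD3E (22050 and 22420, against 15850 to 16720 at 100%), CD3D, CD3G, LCK and TAL1 were higher there. CD7 (1246 and 1240, against 1802 to 1844), CD247, LAT and ZAP70 were lower, and CD28 overlapped. Transcripts of other tissues were uneven between libraries: 4 of 6 erythroid markers reached 10 in at least 2 libraries, with sums of 191 to 5042, all 6 fibroblast markers did so, with sums of 1733 to 12260, and so did 3 of 6 heart muscle markers, with sums of 4.43 to 37890. Sums of B-cell markers, of which 3 of 5 reached 10, were 606 to 668 at 0%, 644 to 651 at 12.5% and 565 to 681 at 25% on day 3, against 220 to 273 at 100%, and myeloid (154 to 380) and epithelial sums (206 to 442) stayed low. The highest heart value belonged to replicate 2 of 25% on day 6. That library was also the highest for the transport members KIF13A (142), KIFC3 (86.3), KIF1C (2756) and KIF13B (1043). Among mitotic members it was the highest for KIF4A (2638), KIF20A (1882), KIF18B (1838), KIF23 (1814), KIF15 (1622), KIF20B (1327) and KIF4B (42.8). Replicate 3 of 100% and replicate 3 of 50% on day 6 stood apart by the number of genes that reached 10. The part of these transcripts in the kinesin results was not tested, and the main counts are also given without these 3 libraries.

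Promoter sequences are shown because 13 of 14 mitotic kinesins were lower at 0% on day 3 and 11 of 14 higher at 12.5% on day 6, as described below. The tables of RefSeq promoters (build GRCh38.p14, 250 bases before to 50 after each start) held 31 of the 38 kinesins, all 14 mitotic, 11 transport and 6 other members. They were searched on both strands for TTTGAA and TTCGAA, the letters of the cell cycle genes homology region to which MuvB binds, and for CCAAT, the letters bound by NF-Y, which is contained in neither of the others. Counting a gene when any promoter of it in the table held the motif, TTTGAA or TTCGAA stood in 11 of 14 mitotic genes (78.6%), in 1 of 11 transport genes (9.09%, KIF5B) and in 1 of 6 others (KIF24), against 19.5% of all 27305 genes with a promoter and 16.4% of all 35116 promoters. CCAAT stood in 11 of 14 mitotic genes (78.6%) and 4 of 11 transport genes (36.4%), against 39.7% of all genes and 34.6% of all promoters. Both kinds stood in 10 of 14 mitotic genes (71.4%), against 7.85% of all genes and 6.38% of all promoters. The 3 mitotic members with neither TTTGAA nor TTCGAA in this window were KIF2A, KIF2C and KIF20A. A match describes letters and does not show that a factor binds there.

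The 150 bases before the start are given below, 5′ to 3′ on the strand of the gene, with each motif searched, on either strand, in capitals. KIF4A (chrX:70289954-70290103, plus strand), KIF11 (chr10:92592980-92593129, plus strand), KIF18A (chr11:28108157-28108306, minus strand) and KIF23 (chr15:69414199-69414348, plus strand) carry TTTGAA and CCAAT on one strand or the other. KIF22 (chr16:29790601-29790750, plus strand) carries TTCGAA and CCAAT. KIF20A (chr5:138178962-138179111, plus strand) has CCAAT at 2 places and neither of the other motifs. Whether these letters relate to the changes of the transcripts was not tested. KIF3B (chr20:32277501-32277650, plus strand) is a transport member with CCAAT, which stood in 4 of 11 transport genes.
KIF4A: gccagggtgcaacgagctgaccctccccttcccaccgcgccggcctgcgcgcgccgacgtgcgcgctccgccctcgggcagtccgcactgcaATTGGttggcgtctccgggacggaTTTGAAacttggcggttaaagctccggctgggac
KIF11: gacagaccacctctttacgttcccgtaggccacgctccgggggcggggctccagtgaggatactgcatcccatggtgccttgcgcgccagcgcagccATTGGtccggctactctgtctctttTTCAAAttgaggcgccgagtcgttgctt
KIF18A: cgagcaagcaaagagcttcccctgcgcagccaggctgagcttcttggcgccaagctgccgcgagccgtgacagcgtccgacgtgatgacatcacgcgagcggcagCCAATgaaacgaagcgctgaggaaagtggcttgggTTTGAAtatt
KIF23: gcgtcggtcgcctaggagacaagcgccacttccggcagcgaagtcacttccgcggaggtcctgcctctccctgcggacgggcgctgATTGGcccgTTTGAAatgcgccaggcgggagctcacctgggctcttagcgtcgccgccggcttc
KIF22: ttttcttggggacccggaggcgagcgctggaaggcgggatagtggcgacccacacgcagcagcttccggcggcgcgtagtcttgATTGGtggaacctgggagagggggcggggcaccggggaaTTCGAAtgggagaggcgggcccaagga
KIF20A: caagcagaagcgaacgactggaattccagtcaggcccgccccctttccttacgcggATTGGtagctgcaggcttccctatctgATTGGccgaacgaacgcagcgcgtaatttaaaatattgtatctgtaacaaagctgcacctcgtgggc
KIF3B: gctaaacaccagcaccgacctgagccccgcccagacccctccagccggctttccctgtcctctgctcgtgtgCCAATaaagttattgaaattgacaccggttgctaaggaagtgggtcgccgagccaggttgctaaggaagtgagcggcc

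In medium without histidine the mitotic kinesins fell together on day 3, while the transport class divided. Of 38 kinesins 24 passed against 100% (limma on log2(normalized count + 1), Benjamini-Hochberg adjusted p under 0.05 over all genes tested), 5 higher and 19 lower, where 31% of all genes tested were called, 14.8% higher and 16.1% lower. All mitotic members except KIF4B, 13 of 14, were lower, with a median log2 change of -1.47 over the class. Of 16 transport members 4 were higher and 4 lower, with a median of -0.27, and of 8 other members 1 was higher and 2 lower. The median over all genes tested was -0.02.

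**Figure D1:**
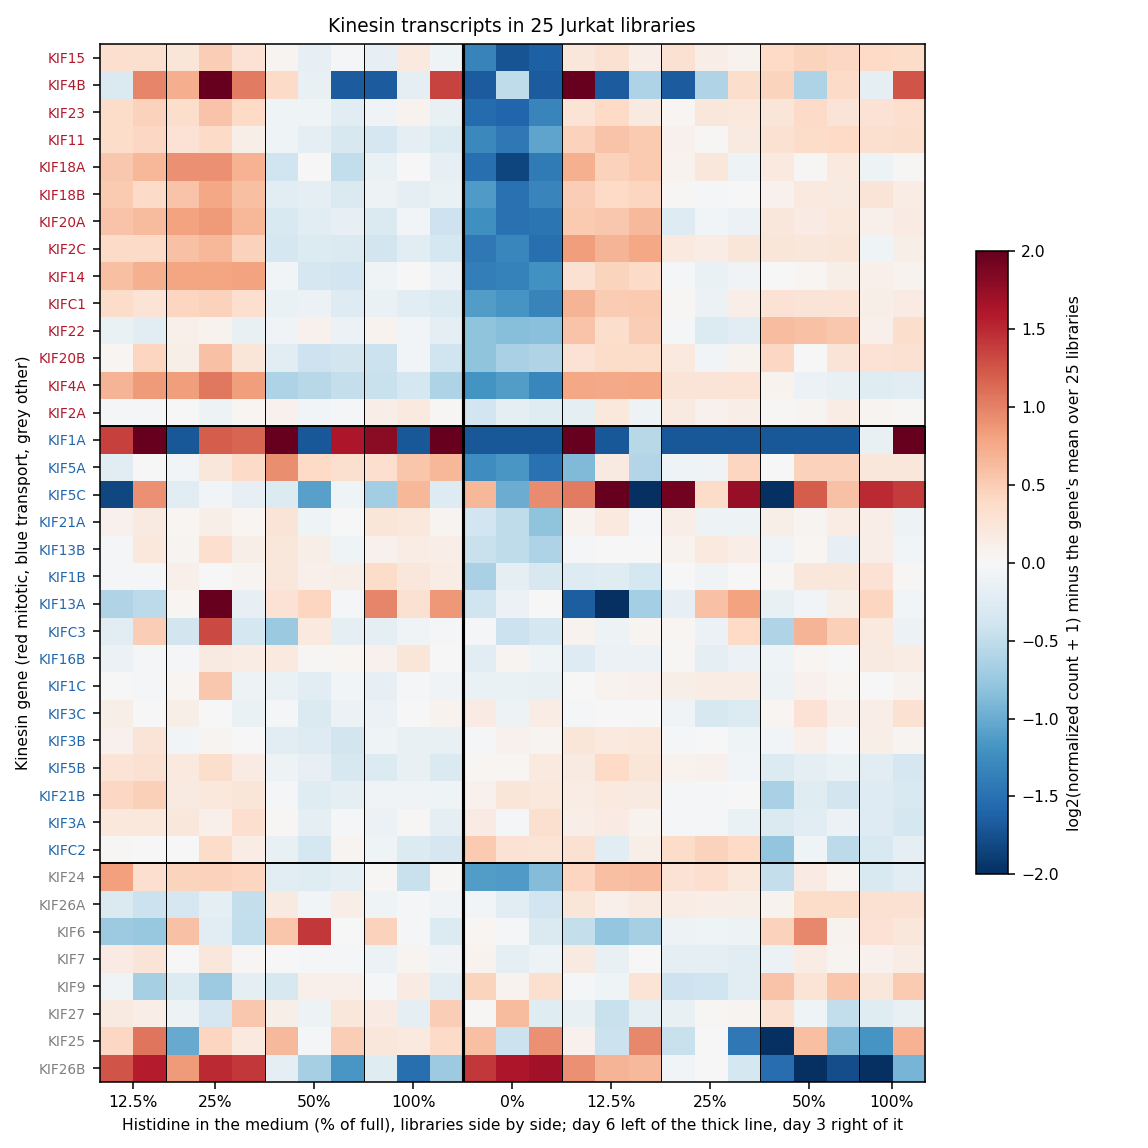
Each row is a kinesin and each column a library, grouped by histidine level, with day 6 left of the thick line and day 3 right of it. Colour gives log2(normalized count + 1) minus the gene's mean over the 25 libraries. The mitotic block is blue in the 3 libraries at 0% histidine on day 3 and mostly red at 12.5% on both days and at 25% on day 6. KIF2A and KIF22 are exceptions at 12.5% on day 6, where they are not red. Most transport rows stay pale, and KIF1A, KIF4B and KIF5C flicker at low counts.

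The motors that separate the spindle poles were among those that fell. KIF11 (ENSG00000138160.5, chromosome 10, 92593286 to 92655395 on GRCh38), the bipolar kinesin-5 that slides antiparallel microtubules apart, had 783, 713 and 922 normalized counts at 0% histidine, against 2392 and 2434 at 100%. The groups did not overlap, and the log2 change was -1.59 (SE 0.092, adjusted p = 3.05e-13). KIF15, a kinesin-12 that can stand in for KIF11 in holding a bipolar spindle, had 458, 346 and 371 at 0%, against 1521 and 1483 at 100%, and showed the largest mitotic fall among called members (log2 -1.95, SE 0.11, adjusted p = 2.58e-13). KIFC1, a minus-end-directed kinesin-14 that gathers spindle poles and extra centrosomes, had 770, 737 and 663 at 0%, against 1818 and 1879 at 100% (log2 -1.35, SE 0.082). Here too the groups did not overlap.

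Motors of the midzone and of cytokinesis fell by a like amount. KIF23, the motor of the centralspindlin complex, had 419, 408 and 490 at 0%, against 1494 and 1556 at 100% (log2 -1.80, SE 0.096, adjusted p = 6.7e-14). KIF20A (ENSG00000112984.11, chromosome 5, 138178719 to 138187715), which brings the chromosomal passenger complex to the midzone, had 449, 371 and 379 at 0%, against 1126 and 1170 at 100% (log2 -1.52, SE 0.10). KIF14, which works with citron kinase in the last step of division, had 539, 551 and 608 at 0%, against 1519 and 1480 at 100% (log2 -1.41, SE 0.085). In each of these 3 genes every library at 0% lay below every library at 100%. KIF20B, a kinesin of late cytokinesis, averaged 550.1 ± 41.3 at 0% (SD, as throughout, n = 3) and 1082 ± 9.11 at 100% (n = 2), a smaller log2 change of -0.98.

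Motors that act on chromosomes and on microtubule ends were lower as well. KIF2C, the centromeric kinesin-13 that depolymerises microtubules to correct attachments, had 776, 853 and 741 at 0%, against 1972 and 2276 at 100% (log2 -1.43, SE 0.078, adjusted p = 1.05e-13). KIF18A, the kinesin-8 that damps chromosome movements at the metaphase plate, had 172, 136 and 183 at 0%, against 456 and 496 at 100% (log2 -1.55, SE 0.14), and KIF18B, its relative on astral microtubules, changed by -1.52. KIF4A (ENSG00000090889.11, chromosome X, 70290090 to 70420832), a chromokinesin that with PRC1 sets the length of midzone microtubules, had 557, 584 and 514 at 0%, against 1073 and 1094 at 100% (log2 -0.97, SE 0.090). KIF22, the chromokinesin behind the polar ejection force, changed by -1.05, also with no overlap between the groups. KIF2A, a kinesin-13 of spindle poles that also works in interphase cells, moved least of those called, with 2540, 2863 and 2800 at 0%, against 3423 and 3331 at 100% (log2 -0.31, adjusted p = 0.00653). Its call was lost without replicate 1 of 100% (adjusted p = 0.0586). KIF4B, a near-identical copy of KIF4A, averaged 0.40 ± 0.70 at 0% and 4.15 ± 3.34 at 100% and did not pass, and how reads were divided between KIF4A and KIF4B is uncertain.

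**Figure D2:**
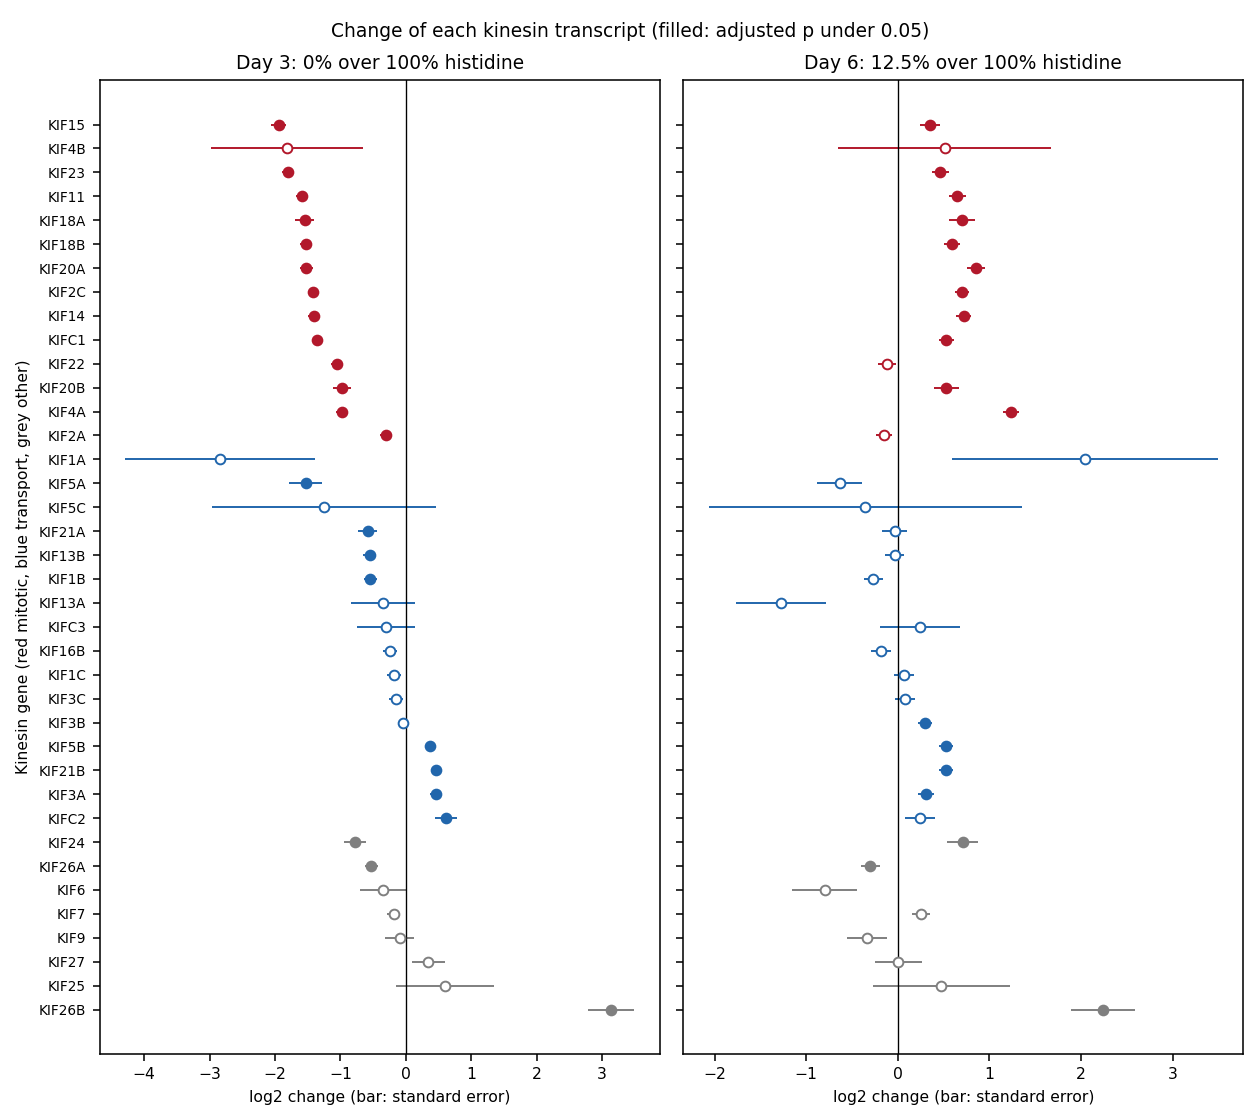
Log2 change of each kinesin with its standard error at 0% against 100% histidine on day 3 (left) and at 12.5% against 100% on day 6 (right); filled points have an adjusted p under 0.05. Of the 14 mitotic members (red) 13 are filled and below 0 on the left and 11 are filled and above 0 on the right, while the transport members (blue) spread around 0.

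Transport motors did not follow a single direction at 0%. KIF5B (ENSG00000170759.10, chromosome 10, 32009010 to 32056431), the ubiquitous heavy chain of kinesin-1, had 6601, 6588 and 7299 normalized counts at 0%, against 5486 and 5087 at 100% (log2 0.37, SE 0.076, adjusted p = 4.15e-04). KIF21B (ENSG00000116852.14, chromosome 1, 200969390 to 201023700), a kinesin-4 that limits microtubule growth in T cells, had 15250, 16930 and 16550 at 0%, against 11950 and 11620 at 100% (log2 0.46, SE 0.075). KIF3A, a motor subunit of heterotrimeric kinesin-2, had 1711, 1506 and 1894 at 0%, against 1275 and 1188 at 100% (log2 0.46, SE 0.092). These 3 motors were higher in every library at 0% than in any at 100%. KIFC2, a minus-end-directed kinesin of the kinesin-14 group, had 1176, 1002 and 983 at 0%, against 659 and 716 at 100% (log2 0.61, adjusted p = 0.00497), a call that was lost without replicate 1 of 100% (adjusted p = 0.0608).

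On the falling side, KIF5A, the kinesin-1 heavy chain known mainly from neurons, averaged 72.4 ± 8.36 at 0% and 210.4 ± 0.66 at 100% (log2 -1.53, SE 0.25). The 6 neuronal markers, all of which reached 10, summed to 114 to 149 at 0% and 259 to 272 at 100%. STMN2 had 20.3, 6.95 and 14.7 at 0%, against 101 and 79.9 at 100%. SNAP25 had 38.1, 36.4 and 31.8, against 92.2 and 65.2. MAP2, at low counts, had 2.04, 0.958 and 1.67, against 10.6 and 6.00. How many of all genes separated between these groups was not counted. The groups overlapped for SYT1, NEFL and NEFM. The part of these transcripts in the value of KIF5A was not tested. KIF1B, a carrier of mitochondria and vesicles, had 1315, 1812 and 1664 at 0%, against 2539 and 2100 at 100% (log2 -0.54, SE 0.10, adjusted p = 1.24e-04), and all libraries at 0% lay below those at 100%. KIF13B changed by -0.56 and KIF21A by -0.59, and the call of KIF21A was lost without replicate 1 of 100% (adjusted p = 0.0511). KIF3B, the partner of KIF3A, had 1221, 1325 and 1293 at 0%, against 1347 and 1289 at 100%, and did not pass; its groups overlapped. The remaining transport members, KIF1A, KIF1C, KIF3C, KIF5C, KIF13A, KIF16B and KIFC3, did not pass either, and KIF1A was listed at 0 in all 3 libraries at 0%.

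Among the other kinesins KIF26B stood out. KIF26B (ENSG00000162849.15, chromosome 1, 245154985 to 245709431) belongs to a group of kinesins whose motor domain lacks ATPase activity. It had 218, 250 and 262 normalized counts at 0%, against 16.8 and 42.0 at 100%, a log2 change of 3.14 (SE 0.35, adjusted p = 7.79e-08) and the largest rise of any called kinesin. The log2 change was 2.50 without replicate 1 of 100% and 3.77 without replicate 3. Its relative KIF26A went the other way, with 1218, 1085 and 972 at 0%, against 1565 and 1568 at 100% (log2 -0.53, SE 0.10). KIF24, a kinesin that acts at the mother centriole and restrains cilium formation, averaged 161 ± 17.2 at 0% and 277 ± 11.3 at 100% (log2 -0.78, SE 0.17), in the direction of the mitotic class. KIF6, KIF7, KIF9, KIF25 and KIF27 did not pass.

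Between full starvation and full medium the day 3 series did not run in one direction for the mitotic motors, whose class level was highest at 12.5%. At 12.5% against 100% on day 3, 14 kinesins passed, 11 higher and 3 lower, where 26.2% of all genes tested were called, 14.2% higher and 12% lower. Mitotic members gave 6 rises and 0 falls, with a median of 0.24 against -0.04 over all genes, and transport members 3 rises and 3 falls, with a median of -0.04. The 6 were KIF4A, KIF2C, KIF18A, KIF20A, KIFC1 and KIF14, with log2 changes of 0.29 to 1.00. KIF4A had 2174, 2142 and 2177 at 12.5%, against 1073 and 1094 at 100% (log2 1.00, SE 0.090, adjusted p = 2.92e-09), with no overlap. KIF14 (log2 0.29) lost its call without replicate 3 of 100% (adjusted p = 0.0825). KIF11, with 2636, 2840 and 2761 at 12.5%, against 2392 and 2434 at 100%, did not pass (log2 0.19, adjusted p = 0.15), nor did KIF23 (log2 -0.03) or KIF15 (log2 -0.16).

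KIF5B, KIF21B and KIF3A were the transport members that rose at 12.5%, by 0.55, 0.45 and 0.43 on the log2 scale. KIF1B, KIF13A and KIF16B were lower there; the call of KIF1B was lost without replicate 1 of 100% (adjusted p = 0.0898), that of KIF13A without that library (adjusted p = 0.114) or without replicate 2 of 12.5%, and that of KIF16B in 3 of the 5 fits that left out a library. KIF26B had 153, 130 and 128 at 12.5% (log2 2.31, SE 0.35, and 1.68 to 2.95 when a library was left out) and KIF24 averaged 488 ± 34.6 (log2 0.81, SE 0.17), against the values at 100% given above. At 25% against 100% the kinesins came close to the background, with 10 of 38 called, 6 higher and 4 lower, where 19.5% of all genes were called, 9.81% higher and 9.72% lower. Of the mitotic members 1 rose there (KIF4A, 1523, 1518 and 1543 at 25%, log2 0.50) and 1 fell (KIF22, 1652, 1392 and 1446, log2 -0.39), and the class median was -0.18. The transport members KIFC2, KIF5B and KIF21B were higher (log2 0.66, 0.31 and 0.27) and KIF3C was lower (log2 -0.44). Each of these transport calls was lost in a fit that left out a library of 100%. The log2 change was 0.60 for KIFC2 without replicate 1. It was 0.25 for KIF5B, 0.25 for KIF21B and -0.35 for KIF3C without replicate 3. Among the other members KIF26B and KIF24 were higher and KIF7 and KIF9 lower, but of the 5 fits that left out a library KIF7 was lost in all 5 (adjusted p of 0.0529 to 0.197), KIF24 in 4 and KIF9 in 3. The number of calls was 6 without replicate 1 of 100%, when KIF26B was lost among others (log2 0.80, adjusted p = 0.216), and 4 without replicate 3, when KIF22 was lost among others (adjusted p = 0.16). With each library scaled to the same total, 63.3% of the genes called were higher, against 50.2% as deposited, and 8 kinesins rose and 3 fell.

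The neighbouring levels of day 3 were also set against each other. At 12.5% against 25% histidine 11 kinesins were higher and 1 lower, where 8.22% of all genes were called (5.41% higher, 2.81% lower), and 9 of the 11 were mitotic (class median 0.48). KIF20A had 1506, 1522 and 1643 at 12.5%, against 878, 1008 and 964 at 25% (log2 0.71, SE 0.089, adjusted p = 8.36e-06), and KIF22 changed by 0.63. With each library scaled to the same total, 35.4% of the genes called were higher, against 65.8% as deposited and 50% under quantile normalization, and the kinesins then split into 9 higher and 2 lower, or 9 and 3 under quantile normalization. At 0% against 12.5% the picture was the reverse, with 1 kinesin higher and 18 lower, where 21% of all genes were called, 8.5% higher and 12.5% lower. Of these 13 were mitotic, again every member but KIF4B, with a class median of -1.77. KIF2C changed most, with 776, 853 and 741 at 0%, against 3761, 3355 and 3604 at 12.5% (log2 -2.18, SE 0.070, adjusted p = 5.91e-18). The fall of KIF2A (log2 -0.24) was lost without replicate 2 of 12.5% (adjusted p = 0.252), as it was when the fit lacked replicate 1 of 0% (adjusted p = 0.13), and the 1 rise, KIF13A, was lost in 4 of the 6 fits that left out a library.

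At 50% histidine no kinesin passed on either day. On day 6 limma called 1 of 22994 genes (0.00435%) and 1098 had an unadjusted p under 0.05, 2 kinesins among them. On day 3 it called 0 genes and 1075 had an unadjusted p under 0.05, 2 of them kinesins (KIF22 and KIF2C). KIF11 had 1802, 1667 and 1541 at 50%, against 1521, 1698 and 1588 at 100% on day 6 (log2 0.06, 95% interval -0.11 to 0.23), and 2367, 2484 and 2531 at 50%, against 2392 and 2434 at 100% on day 3 (log2 0.03, 95% interval -0.16 to 0.22). KIF22 had the lowest unadjusted p of any kinesin on day 3, with 2574, 2506 and 2435 at 50%, against 1795 and 2141 at 100% (log2 0.35, adjusted p = 0.734).

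On day 6 the mitotic kinesins were higher at both lower histidine levels. At 12.5% against 100% 17 kinesins were higher and 1 lower, where 21.9% of all genes were called, 10.8% higher and 11.1% lower. Of 14 mitotic members 11 were higher, with a median of 0.56, and KIF2A, KIF22 and KIF4B did not pass. Of 16 transport members 4 were higher and 0 lower, with a median of 0.07. At 25% against 100% the counts were 16 higher and 1 lower, where 20.2% of all genes were called (11% higher, 9.24% lower), with 11 mitotic rises of 0.37 to 1.38 on the log2 scale (class median 0.70) and 3 transport rises (median 0.03). Without the 3 libraries that stood apart the counts were 15 at 12.5% and 15 at 25%, and the calls lost were KIF15 (adjusted p = 0.0712), KIF3A (adjusted p = 0.0687) and KIF26A (adjusted p = 0.0651) at 12.5%, and KIF15 (adjusted p = 0.19) and KIF20B (adjusted p = 0.0515) at 25%.

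**Figure D3:**
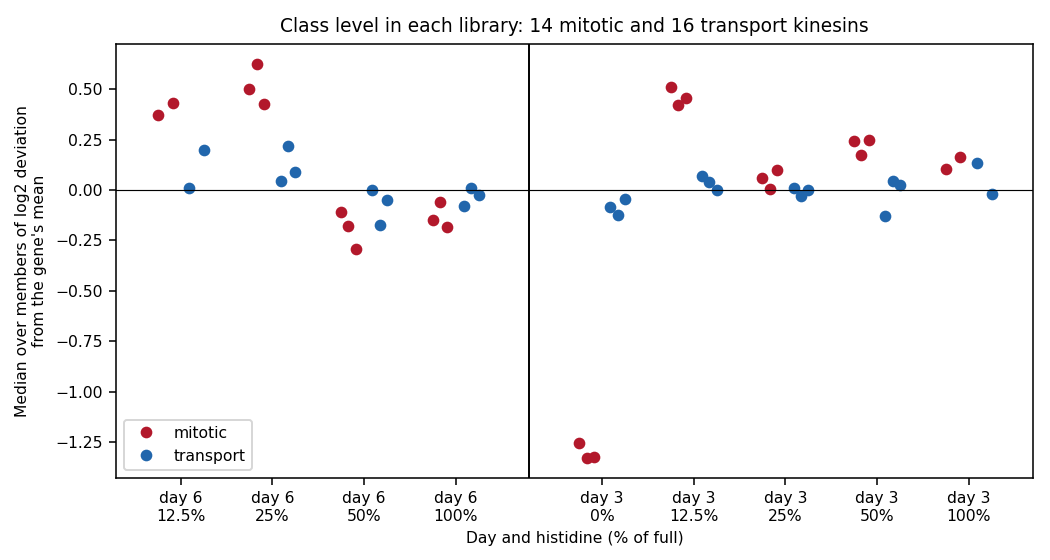
Each point is a library: the median over the 14 mitotic (red) or 16 transport (blue) members of log2(normalized count + 1) minus the gene's mean over 25 libraries, by day and histidine level. The mitotic points lie at 0.37 to 0.63 at 12.5% and 25% on day 6 and at -1.33 to -1.26 at 0% on day 3, and the transport points keep between -0.18 and 0.22.

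Among the called mitotic members KIF4A rose most on day 6, with 2038 and 2294 normalized counts at 12.5% and 2273, 2638 and 2262 at 25%, against 934, 997 and 828 at 100%. The log2 change was 1.24 at 12.5% (SE 0.090, adjusted p = 8.56e-11) and 1.38 at 25% (SE 0.080, adjusted p = 1.45e-12). KIF20A had 1556 and 1623 at 12.5% and 1835, 1882 and 1659 at 25%, against 856, 1005 and 783 at 100% (log2 0.86 and 1.03). In both genes all 5 restricted libraries lay above all 3 at full histidine. KIF14 had 2145 and 2322 at 12.5%, against 1346, 1414 and 1306 at 100% (log2 0.72, SE 0.085, adjusted p = 4e-07), and KIF18A had 712 and 776 at 12.5%, against 447, 485 and 435 at 100% (log2 0.71, SE 0.14). KIF2C had 2734 and 2753 at 12.5%, against 1620, 1801 and 1654 at 100% (log2 0.70, SE 0.078), and KIF11 had 2460 and 2566 at 12.5%, against 1521, 1698 and 1588 at 100% (log2 0.65, SE 0.092). These motors of chromosome alignment, pole separation and cytokinesis moved in the same direction, with no overlap between groups. KIFC1 had 2156 and 2028 at 12.5%, against 1526, 1443 and 1379 at 100% (log2 0.53), and KIF23 had 1590 and 1684 at 12.5%, against 1169, 1294 and 1102 at 100% (log2 0.46).

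KIF15, with 1458 and 1445 at 12.5%, against 1028, 1315 and 1082 at 100%, passed by less (log2 0.35, adjusted p = 0.0222). Leaving out replicate 1 (adjusted p = 0.109) or 3 (adjusted p = 0.0762) of 100%, or replicate 1 (adjusted p = 0.119) or 2 (adjusted p = 0.109) of 12.5%, ended its call. KIF20B (log2 0.53) lost its call without replicate 2 of 12.5% (adjusted p = 0.236). KIF22 did not pass: it had 1527 and 1449 at 12.5%, against 1763, 1612 and 1467 at 100% (log2 -0.11, 95% interval -0.31 to 0.09), and the groups overlapped. KIF2A had 3247 and 3196 at 12.5%, against 3609, 3762 and 3352 at 100% (log2 -0.15, 95% interval -0.32 to 0.03).

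**Figure D4:**
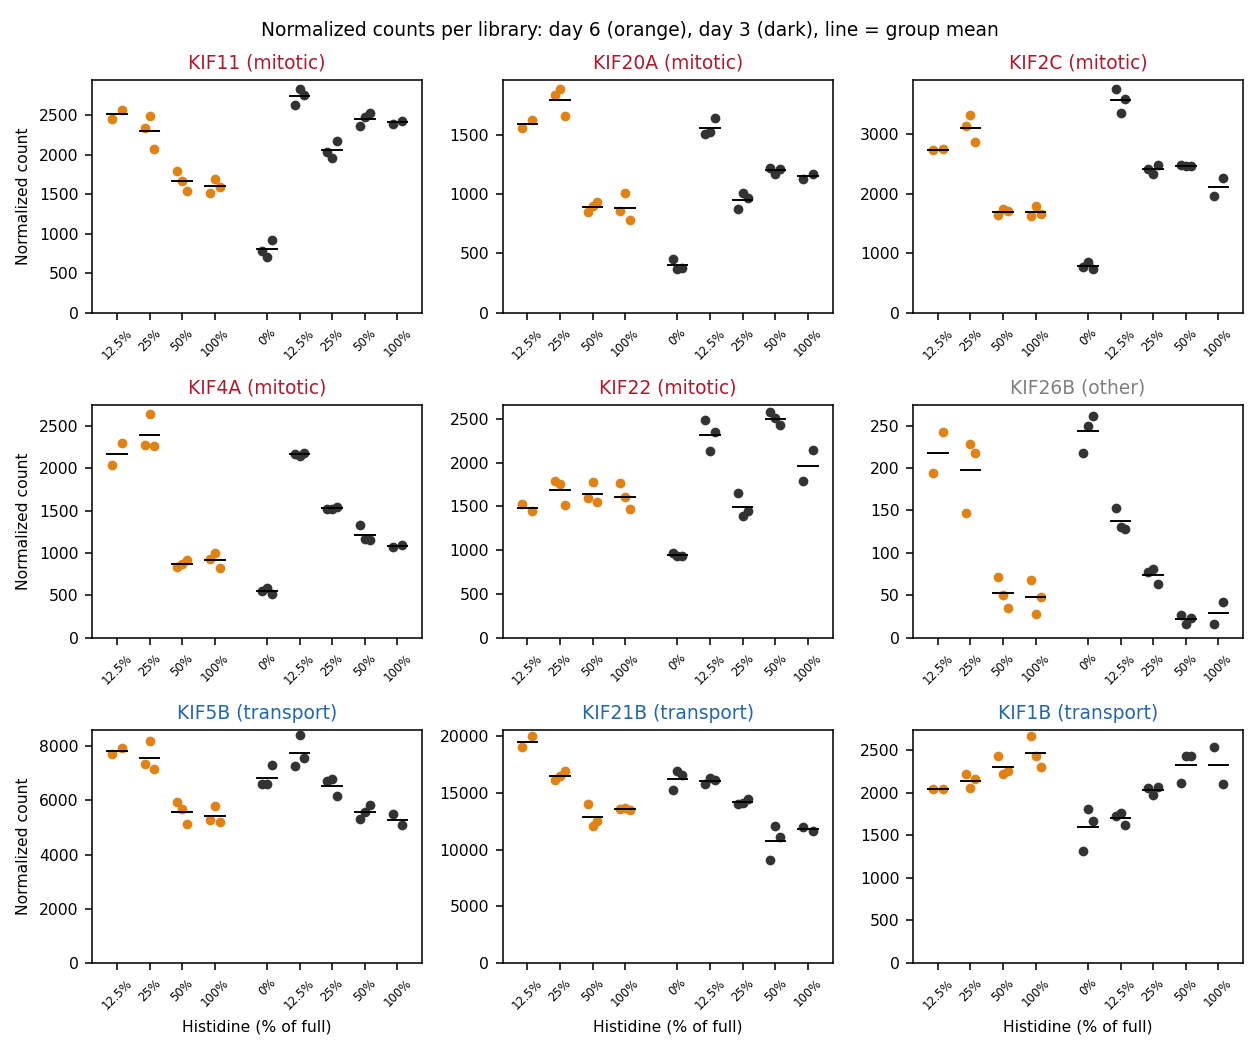
Normalized counts of 9 kinesins in each library, by histidine level, for day 6 (orange) and day 3 (dark); lines are group means and each vertical axis starts at 0. KIF11, KIF20A, KIF2C and KIF4A share a drop at 0% on day 3 and higher levels at 12.5% and 25% on day 6, KIF22 shows no such separation on day 6, and KIF26B is higher at 12.5% and 25% than at 100% on both days.

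KIF5B, KIF21B, KIF3A and KIF3B were the transport members that rose at 12.5% on day 6. KIF5B had 7709 and 7951 at 12.5%, against 5276, 5782 and 5218 at 100% (log2 0.53, SE 0.076, adjusted p = 8.08e-06). KIF21B had 19070 and 19990 at 12.5%, against 13580, 13640 and 13470 at 100% (log2 0.53, SE 0.075, adjusted p = 7.78e-06). No library of one group reached the other in either gene, and both also passed at 25% (log2 0.48 and 0.28). KIF3A had 1760 and 1772 at 12.5%, against 1402, 1549 and 1336 at 100% (log2 0.31, adjusted p = 0.0157), a call that ended without replicate 3 of 100% (adjusted p = 0.0747) or without replicate 1 (adjusted p = 0.0853) or 2 (adjusted p = 0.102) of 12.5%. KIF3B had 1313 and 1486 at 12.5%, against 1173, 1122 and 1126 at 100% (log2 0.29, adjusted p = 0.00537), a call lost without replicate 2 of 12.5% (adjusted p = 0.179). KIF1B had 2041 and 2047 at 12.5%, against 2664, 2434 and 2300 at 100%, and did not pass (log2 -0.27, adjusted p = 0.0612), although its groups did not overlap. KIFC2 had 833 and 812 at 12.5%, against 765, 678 and 647 at 100% (log2 0.24, adjusted p = 0.345).

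KIF26B rose on day 6 as well, with 194 and 242 at 12.5% and 147, 228 and 218 at 25%, against 68.2, 27.8 and 48.3 at 100% (log2 2.24 and 2.08). KIF26A was the 1 kinesin that fell, with 1039 and 938 at 12.5%, against 1197, 1229 and 1215 at 100% (log2 -0.30, adjusted p = 0.0368), and its call was lost in each of the 5 fits that left out a library. KIF24 averaged 504 ± 117 at 12.5% and 307 ± 54.4 at 100% (log2 0.71, SE 0.17), with adjusted p = 0.137 without replicate 1 of 12.5%. At 25% the same direction was seen for KIF24 (log2 0.58), and KIF15 lost its call there when replicate 1 of 100% (adjusted p = 0.0661) or, in a separate fit, replicate 2 of 25% (adjusted p = 0.0631) was left out. Between 12.5% and 25% on day 6 0 kinesins differed (5 with an unadjusted p under 0.05), where 0.874% of all genes were called, 0.204% higher and 0.67% lower.

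The effect of 25% histidine on the mitotic motors differed between the days. The log2 change from 100% was greater on day 6 than on day 3 for 12 kinesins, all mitotic (median difference 0.79 over the class), where 4.72% of all genes were called, 2.71% upward and 2.01% downward. KIF2A and KIF4B were the mitotic members that did not pass, and the transport median was 0.06. KIF20A changed by 1.03 on day 6 and -0.28 on day 3, a difference of 1.30 (SE 0.13, adjusted p = 3.99e-07), and KIF14 by 0.86 and -0.17, a difference of 1.02 (SE 0.11, adjusted p = 1.51e-06). The 100% base also differed between the days. KIF20A averaged 950 on day 3 and 1792 on day 6 at 25%, and 1148 and 881 at 100%. KIF11 averaged 2058 and 2303 at 25%, and 2413 and 1602 at 100%, so its levels differed more at 100% than at 25%. KIF22, with 0.07 on day 6 and -0.39 on day 3, passed narrowly (difference 0.46, adjusted p = 0.0382), and KIF15 likewise (0.58, adjusted p = 0.0212). Of the 11 fits that left out a library, 7 ended the call of KIF22 (adjusted p of up to 0.273) and 6 that of KIF15 (adjusted p of up to 0.0785). The count was 9 without the 3 day 6 libraries that stood apart, when KIF15 (adjusted p = 0.143), KIF20B (adjusted p = 0.071) and KIF22 (adjusted p = 0.197) were lost, and KIF18A was lost without replicate 3 of 100% on day 3 (adjusted p = 0.059). Scaling to equal totals put 32.9% of all called genes upward and quantile normalization 42.8%, against 57.5% as deposited, while the kinesins called were 11 and 12, all upward.

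**Figure D5:**
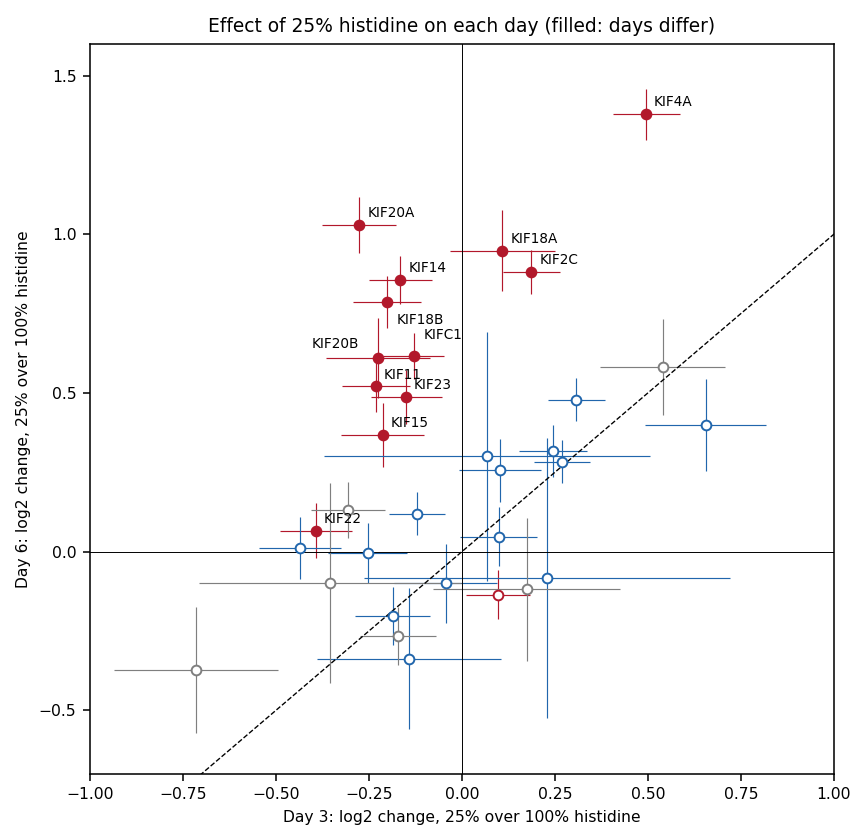
Log2 change at 25% against 100% histidine on day 6 (vertical axis) and on day 3 (horizontal axis) for each kinesin, with standard errors; red is mitotic, blue transport and grey other, filled points differ between the days at an adjusted p under 0.05, and the dashed line marks equal changes. The 12 filled points are all mitotic and lie above the line; KIF1A, KIF4B, KIF5C, KIF25 and KIF26B, with wide errors or beyond the axes, are not drawn.

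At 12.5% the effect was greater on day 6 for KIF11 (difference 0.46, adjusted p = 0.0437), KIF14 (0.43, adjusted p = 0.0449) and KIF23 (0.50, adjusted p = 0.037), where 3.64% of all genes were called, 1.28% upward and 2.36% downward. The number of kinesins called was 0 without replicate 1 or 3 of 100% on day 3, replicate 1 or 3 of 12.5% on day 3, replicate 1 or 3 of 100% on day 6 or either library of 12.5% on day 6, and was 5 without replicate 2 of 100% on day 6. In full medium 9 kinesins were lower on day 6 than on day 3, 8 of them mitotic, and 0 were higher, where 8.66% of all genes were called, 2.93% higher and 5.73% lower. KIF11 had 1521, 1698 and 1588 on day 6, against 2392 and 2434 on day 3 (log2 -0.59, SE 0.092, adjusted p = 9.68e-05), and KIF20B changed by -0.59 (SE 0.14), with no overlap. The count was 1, KIF11, without replicate 3 of day 3, and 5 without replicate 3 of day 6. It was 6 without the 3 day 6 libraries that stood apart. With libraries scaled to equal totals the median over all genes was 0.13, against 0.02 as deposited, the share of called genes that were higher was 70%, against 33.8%, and 2 kinesins were higher and 2 lower (KIF11 at -0.47 and KIF20B at -0.47); under quantile normalization the share was 51.7%, with 1 kinesin higher and 7 lower.

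Set side by side, the mitotic median minus the transport median was 0.49 at 12.5% and 0.67 at 25% on day 6, and -1.20 at 0%, 0.27 at 12.5% and -0.20 at 25% on day 3. No test was run on the difference between the classes, since the members were chosen with results known. Per library the mitotic level on day 6 was 0.37 to 0.43 at 12.5%, 0.42 to 0.63 at 25%, -0.29 to -0.11 at 50% and -0.18 to -0.06 at 100%. On day 3 it was -1.33 to -1.26 at 0%, 0.42 to 0.51 at 12.5%, 0.0022 to 0.098 at 25%, 0.18 to 0.25 at 50% and 0.10 to 0.16 at 100%. The transport level kept within -0.18 to 0.22 in all 25 libraries, and at 0% on day 3 it was -0.12 to -0.05. At 0% the mitotic level was below that of every other library, whereas the transport level at 0% overlapped with that of other groups.

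The partners of these motors were examined as lists, whose counts stand beside 14.8% of all genes called higher and 16.1% lower at 0% on day 3, and 10.8% higher and 11.1% lower at 12.5% on day 6. Of 20 spindle and midzone partners of mitotic kinesins 0 rose and 19 fell at 0% on day 3 (median -1.42, against -0.02 over all genes). ECT2, the exchange factor that centralspindlin recruits, averaged 522 ± 28.7 at 0% and 2093 ± 54.4 at 100% (adjusted p = 5.61e-16). TPX2, which targets Aurora A to the spindle, changed by -1.19 on the log2 scale and INCENP, the scaffold of the passenger complex that KIF20A carries, by -1.40. At 12.5% on day 6 14 rose and 1 fell (median 0.67), among them TPX2 (0.87), the mitotic kinase PLK1 (1.06) and the spindle protein NUSAP1 (0.86), and at 25% on day 6, where 11% of all genes were called higher and 9.24% lower, 16 rose and 0 fell. The 1 that fell was AURKB, the kinase of the passenger complex, which was chosen for naming after its value was seen (log2 -0.60). CENPE, a kinetochore kinesin outside the KIF symbols, averaged 2857 ± 331 at 12.5% and 1807 ± 154 at 100% on day 6 (log2 0.66), and 622 ± 60.6 at 0% and 1765 ± 135 at 100% on day 3 (log2 -1.51). STARD9, another such kinesin, changed by -1.48 at 0% on day 3 and did not pass at 12.5% on day 6 (log2 -0.27, adjusted p = 0.29).

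Among 22 genes of FOXM1, MYBL2, the MuvB and DREAM complexes, E2F factors and NF-Y, 3 rose and 12 fell at 0% on day 3 (median -0.37), and 9 rose and 2 fell at 12.5% on day 6 (median 0.12). MYBL2 averaged 2124 ± 47.0 at 0% and 6515 ± 355 at 100% on day 3 (log2 -1.62), but did not pass on day 6, at 12.5% (log2 0.07, adjusted p = 0.582) or at 25% (log2 -0.03, adjusted p = 0.8). In the same comparison on day 3 FOXM1 changed by -1.15 and the E2F factors E2F2 and E2F8 changed by -1.29 and -1.64. FOXM1, which drives transcription of G2 and mitotic genes, averaged 4447 ± 73.2 at 12.5% and 2251 ± 98.1 at 100% on day 6 (log2 0.98), E2F2 changed by 0.65 and TFDP2, an E2F partner, by -0.73.

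For kinesin light chains and cargo adaptors the counts lay near the share of all genes called (31% at 0% on day 3 and 21.9% at 12.5% on day 6): of 20 genes, 4 rose and 3 fell at 0% on day 3, and 3 rose and 1 fell at 12.5% on day 6 (median 0.02). At 0% the light chain KLC2 changed by 0.47 and KIFBP, a protein that binds and inhibits several kinesins, by -1.46. At 12.5% on day 6 the light chain KLC1 changed by 0.46, KLC2 by 0.36 and TRAK2, a mitochondrial adaptor of KIF5 motors, by 0.56. Dynein and dynactin, the motor that walks the other way, had 24 tested subunits and regulators. At 0% on day 3, 7 of them rose and 0 fell (median 0.23), where 14.8% of all genes were called higher and 16.1% lower. The count in either direction lay near the share of all genes, but every call was a rise. At 12.5% on day 6, 7 rose and 1 fell (median 0.11), where 10.8% of all genes were called higher and 11.1% lower. PAFAH1B1, the dynein regulator LIS1, rose by 0.66 and 0.58 on the log2 scale in these comparisons and the dynactin subunit ACTR1A by 0.50 and 0.52. NDEL1, which links LIS1 to dynein, rose by 0.41 at 0% on day 3, and its relative NDE1 by 1.03 at 12.5% on day 6.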

How the data were processed

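RNA from Jurkat cells was sequenced as strand-specific libraries. The deposited table holds a normalized signal per gene and library, normalized counts that the authors kept apart by replicate. The submitters' processing notes name FastQC 0.11.9, kallisto 0.50.1, DESeq2 1.44.0 and the build GRCh38, while what each tool did, the annotation and whether counting used strand is not given in the sources used here. Values summed to 18444047 to 21378833 per library, and 17445 to 19624 genes reached 10. Read depth is unknown, because only 54.3% to 75.7% of low values (normalized counts under 20) came out whole within 0.05, so no count test was run.

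Genes that reached 10 in at least 2 libraries were tested with limma 3.58.1 (R 4.3.3, statmod 1.5.0) on log2(value + 1), in 1 fit over all 9 groups with trend and robust variance moderation, and p-values were Benjamini-Hochberg adjusted over all genes. Fold changes on this scale understate those of low genes, and levels were not compared between genes. A class level is the median over its members of the deviation from each gene's mean. The fit was tested on simulated data.

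Members, classes and lists were chosen with earlier results of these data known. Values in every library are given for a fixed set of motors and for the 4 largest called changes in each direction, at a mean of at least 50, at 0% on day 3 and 12.5% on day 6; 3 genes are named per list, except 1 gene that is not reported here. Gene coordinates are those of GENCODE 29 and promoters those of RefSeq. Alternatives changed the pseudocount, filter, scaling, fit and libraries.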

Additional observations from a re-analysis of the deposited data

Results flagged for a closer look

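The results below stand out because the effect of restriction differed between the days, by the test of the difference itself (limma, adjusted over all genes). Each value is the log2 change from 100% on day 6 minus that on day 3, and all were higher on day 6. At 25% histidine the difference was 1.30 for KIF20A, 1.02 for KIF14, 0.99 for KIF18B, 0.88 for KIF4A, 0.84 for KIF18A, 0.84 for KIF20B, 0.75 for KIF11, 0.75 for KIFC1, 0.69 for KIF2C, 0.64 for KIF23, 0.58 for KIF15 and 0.46 for KIF22. At 12.5% it was 0.50 for KIF23, 0.46 for KIF11 and 0.43 for KIF14. The calls of KIF22 and KIF15 at 25% were lost in 7 and 6 of the 11 fits that left out a library. Of the 21 alternatives run for each call at 12.5%, 13 ended that of KIF11, 13 that of KIF14 and 12 that of KIF23. In full medium 8 of 14 mitotic members were lower on day 6 than on day 3, a count that rested on single libraries and on the scaling, and these 100% libraries are the base of both effects.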

How the results depend on the processing

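Of 138 kinesin results past the threshold, none reversed under the 2264 alternatives run for them: 2042 alternatives kept direction and threshold, 222 ended the call (adjusted p of 0.0501 to 0.441 in limma), and 85 results kept both under every alternative. The causes were not tested. The 3 kinesins whose effect of 12.5% differed between the days became 0 with no filter on low values, 5 under quantile normalization, 1 with a replicate block, 0 with the number of the library in its label, modulo 8, as a factor, 0 with plain eBayes and 0 without the 3 libraries that stood apart. The modulo 8 factor also left 4 calls at 25% on day 3, 5 at 12.5% against 25%, 1 for day 6 against day 3 and a mitotic minus transport median of -1.06 at 0% on day 3. Equal totals left 4 calls for day 6 against day 3. The class difference at 25% on day 6 was 0.57 for genes at 50 or more, 0.76 without KIF2A, KIF21A and KIF21B (then 0.38 at 12.5% on day 3) and 0.59 without KIF4B.

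Leaving out 1 library at a time gave 15 to 18 calls at 25% and 13 to 17 at 12.5% on day 6, 21 to 25 at 0%, 11 to 16 at 12.5% and 4 to 9 at 25% on day 3, 9 to 13 for 12.5% against 25% and 16 to 19 for 0% against 12.5%, 1 to 9 for day 6 against day 3, and 9 to 13 and 0 to 5 for the difference between days at 25% and 12.5%. The class difference then ran from 0.59 to 0.70 at 25% and 0.52 to 0.60 at 12.5% on day 6, and from -1.28 to -1.02 at 0% and 0.22 to 0.35 at 12.5% on day 3. The counts of calls are given without the share of all genes called in the same fits, so a loss over all genes cannot be told apart. No clear pairing by replicate number was seen: deviations of 92 same-numbered pairs correlated at -0.11 to 0.19, with 1 over 0.1. Weak correlations over all genes cannot exclude pairing, and the labels do not say how replicates were made. The replicate block changed no other count by more than 1.5 times.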
